A study of Mus musculus with 24 samples.

Results

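Pax6 binding in newborn lens was set beside Pax6 binding in embryonic forebrain, using every peak of the lens list and every peak of the forebrain list. These were 3815 lens peaks and 3536 forebrain peaks, together 7351 of the 316828 peaks, islands and open regions listed for the 2 tissues. A peak is a stretch of genome where DNA recovered with the antibody was enriched over a control, and its summit is the base of highest enrichment. All tissue came from CD-1 mice. Whole lenses were dissected at P1 and whole forebrains at E12.5, then crosslinked, homogenised and sonicated, and the chromatin was precipitated with 1 antibody to Pax6 of the same lot in both tissues. The lens list came from 1 library, and the forebrain list joined 2 replicates. The same tissues were also profiled for H3K4me1, H3K4me3, H3K27ac, H3K27me3 and RNA polymerase II, lens for open chromatin by FAIRE, and forebrain, lens epithelium and lens fibers for RNA. Tissue and age differ together here and cannot be told apart, and with 1 list per tissue no difference could be set against the spread between replicates.

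Pax6 is a transcription factor that binds DNA through a paired domain and a homeodomain. In the eye it is required for the lens placode to form, and in the lens it acts on crystallin genes and on genes of the lens epithelium. In the embryonic forebrain it marks the radial glia progenitors of the dorsal cortex, where it shapes patterning and the production of neurons.

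The RNA libraries matched the tissue labels. Pax6 was at 142 RPKM in lens epithelium, at 24.0 RPKM in lens fibers and at 28.1 RPKM in forebrain (RPKM, reads scaled by gene length and library size, 1 library each). The other 8 Pax genes were under 1 RPKM in all 3 libraries, the highest being Pax4 at 0.756 RPKM in fibers. The 10 lens markers were higher in both lens libraries than in forebrain, as for Cryaa, an alpha crystallin, at 11820 RPKM in epithelium, 138921 RPKM in fibers and 18.2 RPKM in forebrain. The 10 forebrain markers were lower in both lens libraries, as for Emx1, a cortical patterning factor, at 0.0496 RPKM in epithelium, 0 RPKM in fibers and 76.0 RPKM in forebrain. The 4 retina and pigment genes used summed to 73.4 RPKM in epithelium, led by Pmel at 52.7 and Rax at 15.8 RPKM, against 0.789 RPKM in fibers and 0.314 RPKM in forebrain. The 5 vessel and blood genes summed to 32.1 RPKM in epithelium, 1.28 RPKM in fibers and 35.9 RPKM in forebrain. The part of these other cells in the peaks was not tested. In dissected tissue, fewer cells with a bound site and less binding per cell cannot be told apart.

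A group of lens peaks stood apart and is named first, because it touches some counts below. It held the 57 lens peaks (1.49% of the list) that overlapped islands with more than 10 times the list's median of control reads per kb. Their fold enrichment, the authors' ratio of signal over control at the summit, was 1.54 to 2.37, and 45 of them lay on chromosome 9. In forebrain 1 peak met the same criterion, with a fold enrichment of 7.53. None of these 58 peaks overlapped a peak of the other tissue. Such peaks are called control-rich here, and results that rest on them are given with and without them. The criterion did not take out every lens peak of low fold. On chromosome 17 from 39983058 to 39984984, 3 lens peaks with folds of 1.74 to 3.23 did not meet it. They stay in the values without control-rich peaks.

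The peaks of both tissues were narrow, and lens peaks were the wider by a margin that followed the shortest width listed. The lens list covered 1180 kb and the forebrain list 990.7 kb. Median width was 286 bp in lens (95% interval 282 to 289) and 253 bp in forebrain (250 to 258), with quartiles at 237 and 352 bp in lens and at 202 and 323 bp in forebrain. These are order-statistic intervals for the median, and they and the exact binomial intervals below cover counting error within a list only. The shortest peak listed was 211 bp in lens, a width shared by 350 peaks (9.17%), and 168 bp in forebrain, shared by 132 peaks (3.73%). Counted above these shortest widths, the median was 75 bp in lens and 85 bp in forebrain, so the order of the tissues turned round. Peaks wider than 500 bp made up 4.72% of the lens list and 4.36% of the forebrain list.

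Fold enrichment had a median of 6.90 in lens, with quartiles at 5.91 and 9.15, and a median of 6.80 in forebrain, with quartiles at 5.51 and 9.07. The highest value was 54.2 in lens and 53.6 in forebrain. In lens 726 peaks (19.0%) reached a fold of 10, and in forebrain 705 (19.9%) did. These values rank peaks within their own list, and lists called apart on libraries of unknown depth do not give a difference in binding strength between tissues. Width followed strength in both lists. By quartile of fold enrichment, weakest first, median width was 238, 246, 291 and 375 bp in lens and 209, 217, 252 and 334.5 bp in forebrain. Summits sat near the middle of the peaks, at a median of 49.6% of the width in lens and 49.4% in forebrain.

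**Figure D1:**
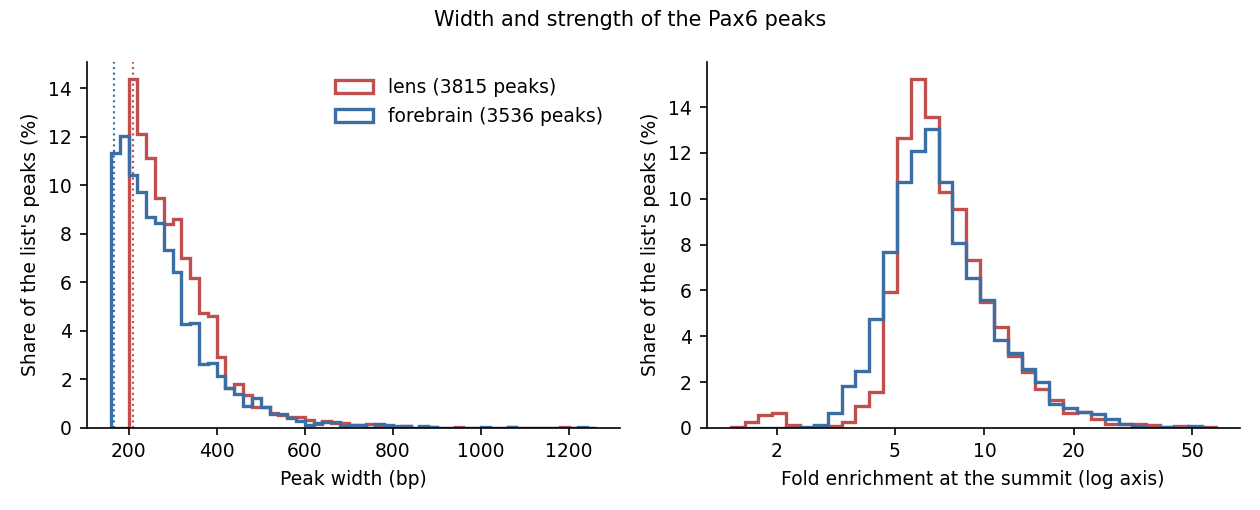
Distribution of peak width (bp, left) and of fold enrichment at the summit (log axis, right) for lens and forebrain Pax6 peaks, as percent of each list; dotted lines mark the shortest width listed. The lens widths start at 211 bp and the forebrain widths at 168 bp, while the fold enrichments have medians of 6.90 in lens and 6.80 in forebrain. The small group of lens peaks near a fold of 2 holds the control-rich lens peaks, though not these alone.

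The widest peaks differed in kind between the lists. The widest lens peak spanned 1191 bp from position 98506319 of chromosome 2 (mm9, as are all positions here), with a fold of 2.27, and it was control-rich. The 1064 bp peak at 3006259 on chromosome 9 and the 892 bp peak at 98502306 on chromosome 2 were control-rich as well. The remaining 2 of the 5 widest lens peaks were shared with forebrain. They lay on chromosome 19 at 22730895 to 22731845 (951 bp, fold 16.4) and on chromosome 4 at 141097567 to 141098433 (867 bp, fold 37.8). Among the 5 widest forebrain peaks, 2 were shared with lens, the widest of all on chromosome 13 at 36374672 to 36375908 (1237 bp, fold 11.7) and that on chromosome 3 at 159514389 to 159515405 (1017 bp, fold 53.6). The others lay on chromosome 14 at 118629136 to 118630198 (1063 bp, fold 14.1) and at 98471976 to 98472848 (873 bp, fold 5.56) and on chromosome 2 at 142160606 to 142161504 (899 bp, fold 12.3). None of these 5 was control-rich.

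About 1 lens peak in 3 met a forebrain peak by at least 1 bp. Joined into regions, the lists gave 6108 places bound in at least 1 tissue, of which 2573 held lens peaks only, 2293 held forebrain peaks only and 1242 held both. The share overlapping the other list was 32.6% of lens peaks (31.1 to 34.1) and 35.2% of forebrain peaks (33.6 to 36.8). As a background, overlap with forebrain Pax6 peaks was 6.17% of lens H3K4me1 islands, 1.43% of lens H3K27me3 islands, 1.26% of lens H3K4me3 peaks, 1.78% of lens H3K27ac peaks, 1.59% of lens RNA polymerase II peaks and 0.904% of lens FAIRE regions. Overlap with lens Pax6 peaks was 2.92% of forebrain H3K4me1 islands, 1.91% of forebrain H3K27me3 islands, 1.38% of forebrain H3K4me3 peaks, 1.55% of forebrain H3K27ac peaks and 1.12% of forebrain RNA polymerase II peaks. Most of these 11 lists hold far more entries than the Pax6 lists, which by itself limits the share they can reach, and widths differ too. Counted over Pax6 peaks instead, H3K4me1 of the other tissue reached shares near the Pax6 overlap. Forebrain H3K4me1 covered 33.5% of lens peaks (32.0 to 35.0). Without the control-rich peaks it covered 32.5% of them, and the Pax6 overlap was then 33.0%. Lens H3K4me1 covered 37.9% of forebrain peaks (36.3 to 39.5), against a Pax6 overlap of 35.2%. The other marks of the other tissue covered smaller shares than the Pax6 overlap, as did lens FAIRE, at 27.9% of forebrain peaks. The overlapped bases came to 331.8 kb, which was 28.1% of the lens and 33.5% of the forebrain peak sequence.

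The strongest forebrain peaks met a lens peak more often than the strongest lens peaks met a forebrain peak. Of the 100 strongest lens peaks by fold enrichment, 34 overlapped a forebrain peak (34%, 24.8 to 44.2). Of the 100 strongest forebrain peaks, 80 overlapped a lens peak (80%, 70.8 to 87.3). The lowest fold in these sets was 18.4 in lens and 18.8 in forebrain, and no control-rich peak was in either. With the peaks ranked by q-value the counts were 39 in lens and 79 in forebrain. The gap was widest at this length of list among those tried. Among the 25 strongest, 14 lens peaks (56%, 34.9 to 75.6) and 21 forebrain peaks (84%, 63.9 to 95.5) overlapped the other list, and these intervals overlapped. Among the 50 strongest it was 19 lens peaks (38%) and 40 forebrain peaks (80%). Further down the lists it stood at 42.8% of the 250 strongest lens peaks and 72% of the 250 strongest forebrain peaks, and at 47.5% of the 1000 strongest lens peaks and 58.4% of the 1000 strongest forebrain peaks.

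By deciles of the list, the overlapped share of forebrain peaks was 19.2% in the weakest decile and 70.9% in the strongest (65.9 to 75.6). In lens it was 20.4% in the weakest decile, 49.3% in the ninth and 47.4% in the strongest (42.3 to 52.5). The intervals of the strongest deciles did not overlap between the tissues. Among peaks with a fold of at least 20, 29 lens peaks were shared and 51 were lens only, against 66 shared and 15 forebrain-only peaks in forebrain.

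**Figure D2:**
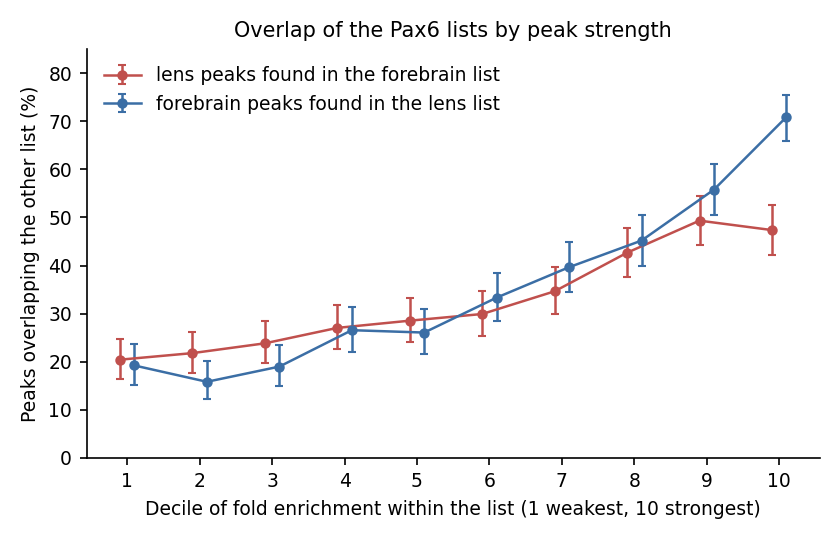
Share of lens and of forebrain peaks (%) overlapping a peak of the other tissue, by decile of fold enrichment within the list; bars are exact 95% binomial intervals. The curves lie near each other over most deciles and part in the strongest, at 47.4% in lens and 70.9% in forebrain.

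The 66 of the 100 strongest lens peaks that had no forebrain peak lay mainly in open lens chromatin. FAIRE regions, which are poor in nucleosomes, covered 53 of them (80.3%) and 25 of the 34 shared ones (73.5%), against 37.5% of all lens peaks. H3K4me1, a mark found at enhancers, was listed in lens at 47 of the 66 and at 26 of the 34, against 42.9% of all lens peaks. In forebrain the same mark was listed at 18 of the 66 (27.3%) and at 23 of the 34 (67.6%), against 33.5% of all lens peaks. A forebrain peak lay within 50 kb of 21 of the 66.

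The 20 of the 100 strongest forebrain peaks that had no lens peak were in open lens chromatin less often than the shared ones. Lens FAIRE regions covered 4 of the 20 (20%) and 46 of the 80 shared ones (57.5%), against 27.9% of all forebrain peaks. Forebrain H3K4me1 was listed at 16 of the 20 and at 57 of the 80, against 62.5% of all. Forebrain H3K27me3, the mark of Polycomb repression, was listed at 9 of the 20 (45%) and at 22 of the 80 (27.5%), against 27.5% of all forebrain peaks. A lens peak lay within 50 kb of 3 of the 20.

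The strongest lens-only peaks were in lens FAIRE regions and lens H3K4me1 islands in all 3 cases. They lay on chromosome 8 at 6132090 to 6132780 (fold 44.7), on chromosome 17 at 82598413 to 82599064 (fold 44.6) and on chromosome 10 at 68847304 to 68847792 (fold 39.8). The nearest forebrain summit was 6.94 kb away on chromosome 8, 821.5 kb away on chromosome 17 and 96.6 kb away on chromosome 10. The chromosome 8 and chromosome 10 peaks were also in lens H3K27ac, a mark of active enhancers and promoters.

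The 3 strongest forebrain-only peaks lay in lens H3K27me3 islands. This did not hold for most of the 20 above, of which lens H3K27me3 covered 6 (30%). It covered 9 of the 80 shared ones and 13.5% of all forebrain peaks. The first, on chromosome 12 at 57559700 to 57560176 (fold 32.1), was in H3K27me3 of both tissues and in lens FAIRE, 14.3 kb from the nearest lens summit. The next, on chromosome 8 at 12430118 to 12430503 (fold 28.8), was in H3K27me3 and H3K4me1 of both tissues and in forebrain H3K27ac, 87.0 kb from the nearest lens summit. The last, on chromosome 4 at 89317527 to 89317948 (fold 28.0), was in lens H3K27me3 and forebrain H3K4me1, 570.4 kb from the nearest lens summit. Which genes lie near these positions was not analysed here.

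Where lens and forebrain peaks overlapped, their summits lay close together and closest at strong sites. There were 1243 pairs, since 1 lens peak met 2 forebrain peaks. The median distance between summits was 24 bp (22 to 25), with quartiles at 11 and 45 bp, and 14 pairs had their summits on the same base. The lens summit lay at a higher coordinate in 591 pairs and at a lower one in 638, and the signed median (lens minus forebrain) was -1 bp. Pairs were ordered by the lower of their 2 ranks in fold enrichment and split into quartiles. The median distance was 30, 26, 23 and 18 bp, weakest pairs first. The share of summits within 50 bp was 66.6% in the weakest quartile and 88.1% in the strongest.

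Few pairs touched only at their edges. The overlap was at least 0.5 of the shorter peak in 1235 pairs (99.4%), and no pair overlapped by under 50 bp. Summits were more than 200 bp apart in 18 pairs, the farthest at 521 bp on chromosome 10, where a lens peak at 98724653 to 98724958 met a forebrain peak at 98724683 to 98725386. Lens peaks were the wider in 793 pairs (63.8%), by a median over all pairs of 38 bp. Above the shortest width of its own list, the lens peak was the wider in 573 pairs and the forebrain peak in 662, so this order too depended on the minimum width.

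**Figure D3:**
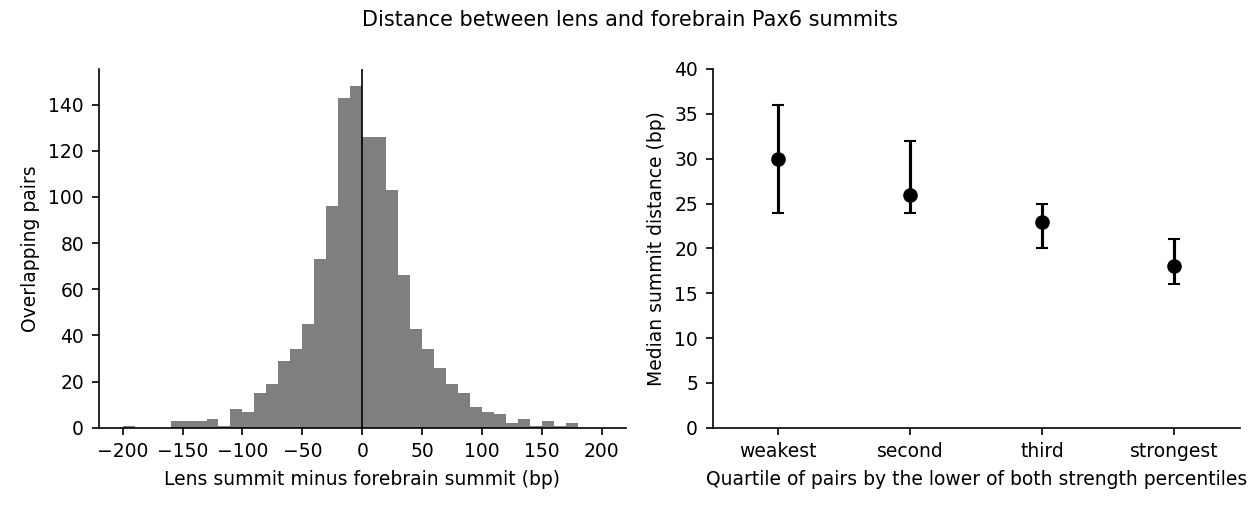
Number of overlapping pairs by lens summit minus forebrain summit (bp, left), and median distance between summits by quartile of pair strength with its 95% interval (right). Distances centre on 0 with a median size of 24 bp, the 18 pairs more than 200 bp apart lie outside the histogram, and the medians are 30 bp in the weakest and 18 bp in the strongest quartile.

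A shared site was often not of the same rank in the 2 tissues. Across the 1243 pairs, Spearman's rho between lens and forebrain fold enrichment was 0.36. This is a description with no test, since pairs of 1 library or list are not replicates and share its depth. The lens peak was in the top quartile of its own list in 456 pairs and the forebrain peak in 534, and both were in 270. The percentiles of the peaks were within 20 points in 637 pairs (51.2%). They differed by more than 50 points in 184 pairs (14.8%), with lens ranked higher in 73 and forebrain in 111. In 16 pairs a peak of the 100 strongest in lens met one of the 100 strongest in forebrain. Of these sets, 34 lens peaks and 80 forebrain peaks met any peak of the other tissue, which limits this number.

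**Figure D4:**
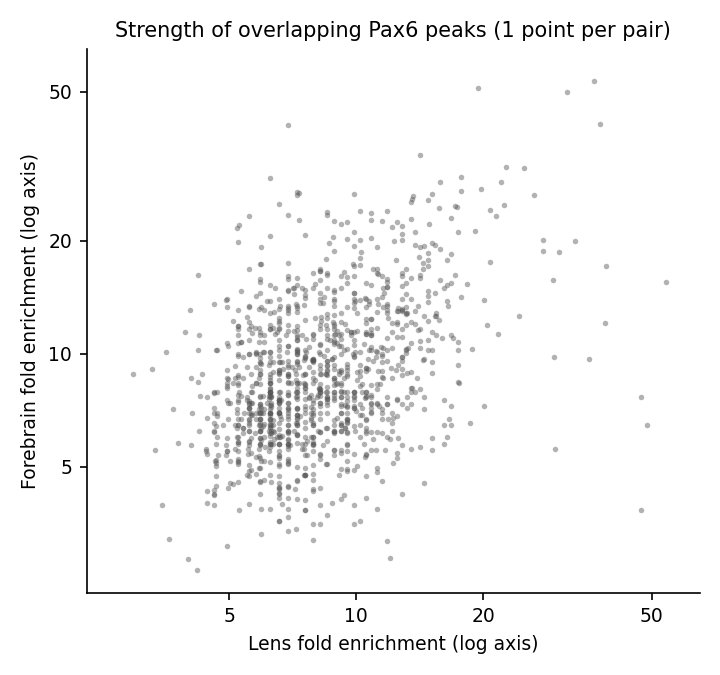
Fold enrichment of the lens peak and of the forebrain peak (log axes) in each of the 1243 overlapping pairs, 1 point per pair. Spearman's rho is 0.36, and the points scatter widely, with a lens peak of fold 47.3 beside a forebrain peak of 3.84.

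The pairs strongest in both tissues carried marks of differing kinds. On chromosome 4 the lens peak at 141097567 to 141098433 had a fold of 37.8 and its forebrain partner 41.0, within lens FAIRE, H3K4me1 of both tissues and H3K27ac of forebrain. On chromosome 3 the lens peak at 159514886 to 159515415 had a fold of 36.5 and its partner, the forebrain list's strongest peak, 53.6. It lay in lens FAIRE, H3K4me1 of both tissues and H3K27me3 of forebrain. On chromosome 5 the lens peak at 143105115 to 143105587 had a fold of 31.5 and its partner 50.02. This was the one of the 5 within H3K4me3, the mark of active promoters, and it had H3K4me3 and H3K27ac in both tissues and RNA polymerase II in lens. On chromosome 2 the lens peak at 31816424 to 31817038 had a fold of 26.3 and its partner 26.6, in H3K4me1 of both tissues and lens H3K27ac. On chromosome 10 the lens peak at 83068258 to 83068856 had a fold of 24.97 and its partner 31.3, and it overlapped none of the listed marks and no FAIRE region.

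The pairs with the most unequal ranks were those where a top peak of one tissue met a weak peak of the other. On chromosome 19 the lens peak at 53927108 to 53927845 had a fold of 47.3, and its forebrain partner had a fold of 3.84, although their summits were 30 bp apart. It was the lens peak that met a second forebrain peak, of fold 7.65. It lay in lens H3K4me1, H3K27ac and FAIRE and in forebrain H3K4me1. On chromosome 2 the lens peak at 77843666 to 77844229 had a fold of 12 and its partner 2.85. On chromosome 14 the lens peak at 22071620 to 22072236 had a fold of 11.8 and its partner 3.17.

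In the other direction, the lens peak on chromosome 5 at 107006626 to 107006845 had a fold of 4.21 and its forebrain partner 16.2. Both were in H3K27me3 of both tissues, forebrain H3K4me1 and lens FAIRE. On chromosome 9 the lens peak at 28160402 to 28160701 had a fold of 4.04 and its partner 13.1, in none of the listed marks or FAIRE regions. On chromosome 12 the lens peak at 71704429 to 71704639 had a fold of 4.60 and its partner 13.6, in lens FAIRE alone.

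Most peaks without an overlap had no peak of the other tissue within 50 kb, in lists that were themselves sparse. The median distance to the nearest summit of the other list was 225.9 kb for lens-only peaks (217.6 kb without the control-rich peaks). It was 184.7 kb for forebrain-only peaks. As a base, the median distance to the nearest summit of the same list was 154.8 kb in lens and 152.9 kb in forebrain. A summit of the other list lay within 50 kb of 465 of 2573 lens-only peaks (18.1%, 16.6 to 19.6) and of 481 of 2293 forebrain-only peaks (21.0%, 19.3 to 22.7). Near misses were rare, with 16 lens-only peaks and 19 forebrain-only peaks within 1 kb of the other list.

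Median spacing was close in the 2 lists, and forebrain peaks had a near neighbour more often. The median distance to the nearest summit of the same tissue was 154.8 kb in lens (158.2 kb without the control-rich peaks) and 152.9 kb in forebrain. Another summit of the same list lay within 50 kb of 956 lens peaks (25.1%, 23.7 to 26.5) and of 978 forebrain peaks (27.7%, 26.2 to 29.2). Without the control-rich peaks the lens share was 24.1% (22.8 to 25.5). Within 5 kb it was then 4.58% in lens (3.93 to 5.29) and 6.87% in forebrain (6.06 to 7.76). Neighbours count for each other, so peaks are not independent here, and the intervals of these shares are too narrow to compare the tissues. At 1 kb, 83 lens peaks had such a neighbour (2.18%), or 42 (1.12%, 0.807 to 1.51) without the control-rich peaks, against 82 forebrain peaks (2.32%, 1.85 to 2.87). For scale, the strongest 3000 entries of each list were taken, with summits within 1 kb joined and control-rich ones left out. These gave 20.2% for lens Pax6 (18.8 to 21.7), 34.2% for lens H3K27ac and 27.2% for lens H3K4me3. The same measure was 22.6% for forebrain Pax6 (21.1 to 24.1), 33.6% for forebrain H3K27ac and 28.3% for forebrain H3K4me3. In this setting the intervals of the Pax6 lists overlapped.

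**Figure D5:**
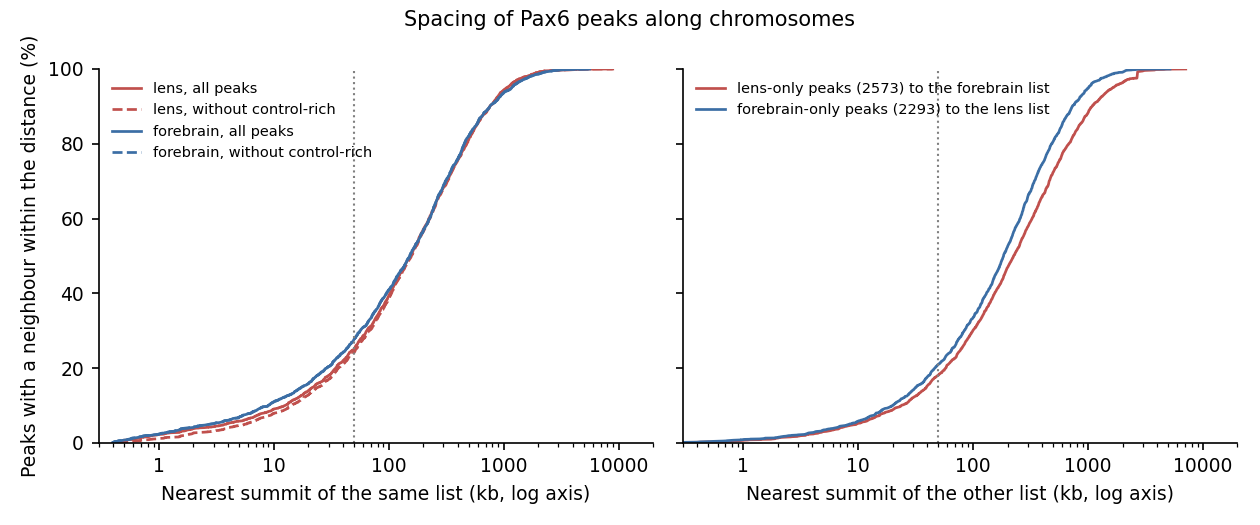
Cumulative share of peaks (%) by distance to the nearest summit of the same list (left; dashed lines leave out the control-rich peaks) and, for peaks without an overlap, of the other list (right), in kb on log axes with a dotted line at 50 kb. At 50 kb the shares are 25.1% in lens and 27.7% in forebrain for the same list, and 18.1% of lens-only and 21.0% of forebrain-only peaks for the other list.

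Clusters were defined as at least 3 peaks with neighbouring summits at most 50 kb apart. Lens had 82 clusters with 328 peaks (8.60% of the list) and forebrain 98 clusters with 338 peaks (9.56%). Without the lens clusters that held control-rich peaks, lens had 79 clusters with 277 peaks. Most were small, with 57 of the lens and 67 of the forebrain clusters made of 3 peaks. Clusters of the other tissue were overlapped by 18 lens clusters (22.0%) and by 18 forebrain clusters (18.4%). A forebrain peak lay inside 54 of the lens clusters (65.9%), and a lens peak lay inside 62 of the forebrain clusters (63.3%). Single peaks overlapped the other list at 32.6% in lens and 35.2% in forebrain. A cluster joins at least 3 peaks, so such shares are reached more easily by clusters than by single peaks. No base for clusters was computed, so these counts do not show that clusters coincide. No peak was shared in 31 lens and 41 forebrain clusters. The order of the cluster counts turned round at a q-value of at most 1e-5, with 75 lens and 74 forebrain clusters, and at 100 kb, with 180 lens and 170 forebrain clusters.

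The lens cluster with the most peaks was made of control-rich peaks throughout, 44 of them on chromosome 9 from 3000012 to 3038297 with folds of 1.61 to 2.23. The next, on chromosome 2 from 105456095 to 105633305, held 11 lens peaks with folds of 5.27 to 12.2. Of these 9 were in lens H3K4me1, 4 in lens H3K27ac, 5 in lens FAIRE, 8 in forebrain H3K4me1 and 7 in forebrain H3K27me3. It contained 6 forebrain peaks, and 3 of its lens peaks overlapped one. The forebrain cluster there, from 105513478 to 105561323, held 5 peaks, 2 of them shared and all 5 in forebrain H3K27me3.

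A cluster on the X chromosome was nearly the same in both tissues and carried no listed mark. In lens it ran from 34802247 to 35068850 with 8 peaks, and in forebrain from 34802291 to 35025237 with 7 peaks. All 7 forebrain peaks were shared, with summits 3 to 54 bp apart. Folds were 5.64 to 14.8 in lens and 7.17 to 16.4 in forebrain. Neighbouring summits were 21.5 to 47.9 kb apart in lens, with a median of 41.6 kb, and 21.6 to 47.9 kb apart in forebrain, with a median of 38.1 kb. None of the peaks overlapped a mark list of either tissue or a FAIRE region. Of all clusters, 5 of 82 in lens and 1 of 98 in forebrain, this one, had no peak in any of these lists.

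Next in lens were 6 clusters of 5 peaks, of which the 2 with the shortest span are named, on chromosome 19 from 22716679 to 22767365 and on chromosome 7 from 30215865 to 30275211. On chromosome 19, lens H3K4me1 covered 2 peaks and lens H3K27ac and FAIRE 3 each. On chromosome 7, lens H3K4me1 covered all 5, and lens H3K27ac and FAIRE covered 4 each. In the other 4 of these clusters lens H3K27ac covered 0 or 1 peak. In forebrain, a cluster of 7 peaks on chromosome 11 from 18778184 to 18890695 had 3 shared peaks, with H3K4me1 at 5, H3K27me3 at 5 and H3K27ac at 0 in forebrain. A cluster of 6 on chromosome 16 from 91099757 to 91176465 had 1 shared peak. Of 5 forebrain clusters of 5 peaks, the 2 with the shortest span were that on chromosome 2 given above and one on chromosome 10. The cluster on chromosome 10 from 42298142 to 42352807 had all 5 peaks in H3K4me1 and in H3K27me3 of forebrain, and 4 in H3K27ac. In the other 4 forebrain clusters of 5 peaks, forebrain H3K27ac covered 0 or 1 peak.

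Clustered peaks lay in H3K4me1 of either tissue and in H3K27ac of their own tissue more often than isolated ones. Control-rich peaks were left out after the clusters were drawn, so 279 clustered lens peaks stayed here, against 277 in clusters free of them. Lens H3K4me1 covered 62.4% of these 279 peaks (56.4 to 68.1). It covered 37.5% of the 2851 lens peaks with no neighbour within 50 kb (35.7 to 39.3). Forebrain H3K4me1 covered 79.0% of the 338 clustered forebrain peaks (74.3 to 83.2) and 57.7% of the 2557 isolated ones (55.7 to 59.6). H3K27ac of the own tissue followed, at 18.3% of clustered and 10.4% of isolated lens peaks and at 27.5% of clustered and 17.7% of isolated forebrain peaks. The other marks of lens did not follow, with lens H3K27me3 at 5.02% of clustered and 6.38% of isolated lens peaks, lens H3K4me3 at 3.23% and 4.70% of them, and lens RNA polymerase II at 1.08% and 1.19%. Forebrain H3K27me3 covered 37.3% of clustered and 24.5% of isolated forebrain peaks, and forebrain H3K4me3 covered 5.62% of clustered and 5.83% of isolated ones. H3K4me1 and H3K27me3 of the other tissue were also more frequent at clustered peaks, while its H3K4me3 was not. Forebrain H3K4me1 covered 43.4% of clustered and 29.5% of isolated lens peaks, and lens H3K4me1 53.8% and 33.8% of forebrain peaks. Forebrain H3K27me3 covered 21.1% of clustered and 12.3% of isolated lens peaks, and lens H3K27me3 18.6% and 11.9% of forebrain peaks. Lens FAIRE regions covered 47.7% of clustered (41.7 to 53.7) and 34.3% of isolated lens peaks (32.6 to 36.1). They covered 32.5% of clustered (27.6 to 37.8) and 26.8% of isolated forebrain peaks (25.1 to 28.6). Neighbouring peaks can lie in 1 island, so they are not independent counts.

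Clustered peaks were not more often shared. In lens 34.4% of clustered peaks (28.9 to 40.3) and 33.4% of isolated peaks overlapped the other tissue. In forebrain it was 29.9% of clustered peaks (25.1 to 35.1) and 37.0% of isolated peaks (35.1 to 38.9).

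At the scale of 1 Mb, peaks of the other tissue were in most windows that held peaks of 1 tissue, and peaks of either tissue were in most windows in general. Of 1746 windows with a lens peak, 75.3% also held a forebrain peak, and of 1607 windows with a forebrain peak, 81.8% also held a lens peak. As a base, of the 2584 windows with any entry in any list of the series, 67.6% held a lens peak and 62.2% a forebrain peak. Apart from the control-rich end of chromosome 9, with 45 lens peaks and 0 forebrain peaks, the fullest lens window was chromosome 2, 105000001 to 106000000, with 15 lens and 10 forebrain peaks. Windows on chromosome 10 from 119000001 (12 lens, 7 forebrain) and on chromosome 5 from 132000001 (12 lens, 10 forebrain) came next. The fullest forebrain windows were on chromosome 3 from 34000001, with 7 lens and 14 forebrain peaks, and on chromosome 18 from 55000001, with 7 lens and 12 forebrain peaks.

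A few windows were full in 1 tissue and empty in the other. The window on chromosome 1 from 41000001 held 0 lens and 10 forebrain peaks, with folds of 3.34 to 8.86. Forebrain H3K4me1 covered all 10 and forebrain H3K27ac 9 of them, while lens H3K4me1 covered 1. In lens, windows on chromosome 12 from 74000001 and on chromosome 5 from 74000001 held 6 lens peaks each and 0 forebrain peaks. In all, 19 windows had at least 4 lens and 0 forebrain peaks, and 13 had 0 lens and at least 4 forebrain peaks. These windows were picked by their counts, so their contrast is a description.

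The lists were spread over the chromosomes alike. The exact intervals of its share overlapped between the tissues on every chromosome, and the ratio of lens to forebrain peaks ran from 0.898 on chromosome 18 to 1.28 on chromosome 17. On chromosome 9 it was 1.18, and 0.948 without the control-rich peaks. The overlapped share varied more, from 22.5% of lens peaks on chromosome 13 to 41.4% on chromosome 2, and from 25.6% of forebrain peaks on chromosome 13 to 51.3% on chromosome 19.

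Most Pax6 peaks lay far from H3K4me3, which stands in for active promoters here. The median distance from a summit to the nearest H3K4me3 peak of the same tissue was 82.2 kb in lens and 89.1 kb in forebrain. Within 1 kb lay 7.71% of lens summits, or 6.33% (5.58 to 7.16) without the control-rich peaks, and 8.23% of forebrain summits (7.34 to 9.18). Shared peaks were nearer than lens-only ones, with 10.9% of shared lens peaks (9.19 to 12.7) and 4.09% of lens-only peaks (3.35 to 4.94) within 1 kb, control-rich peaks left out. In forebrain the shares were 10.1% of shared peaks (8.44 to 11.9) and 7.24% of forebrain-only peaks (6.21 to 8.38). The intervals of shared and tissue-only peaks did not overlap in either tissue.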

How the data were processed

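The authors' peak caller for Pax6, H3K4me3, H3K27ac and RNA polymerase II was MACS2, and the build mm9, per the submitters' processing notes. These deposited lists give a fold enrichment (a ratio) at the summit, -log10 p and q-values, a display score and a summit offset. H3K4me1 and H3K27me3 islands were called by the authors with SICER, and the names of the lists give a window of 200 bp, a gap of 600 bp and a false discovery rate of 0.001. Each deposited island has counts of ChIP reads and of control reads, a fold and a p-value. FAIRE regions were deposited by the authors with no score used here, and RNA values as RPKM, for which the submitters' processing notes name TopHat2 (2), Cufflinks (2) and Cuffdiff. Not given in the sources used here are the aligner, thresholds, library depths, choice of input and the way the forebrain replicates were joined.

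Overlap meant at least 1 bp in common (Python 3.11.15, pandas 2.3.3, numpy 2.4.6; checked against bedtools 2.31.1 and on simulated data). Shares have exact Clopper-Pearson 95% intervals (scipy 1.17.1). Reads are not independent molecules, so the intervals cover counting error only. Samples were grouped by their labels. With 1 list per tissue no test was made. Control-rich peaks overlap islands above 10 times the list's median of control reads per kb. Percentiles rank fold enrichment within a list. Positions are 1-based on mm9.

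Regions were named by rule: per tissue the 5 clusters with the most peaks (ties by shorter span), the 3 strongest tissue-only and the 5 widest peaks, and the 3 fullest windows of 1 Mb; among pairs the 5 with the highest smaller fold and the 3 most unequal in rank each way. Windows full in 1 tissue only, the pair with the farthest summits and the marks of the 100 strongest peaks were added after values were seen. The members and lists were chosen with earlier results of these data known. Alternatives covered the overlap rule, equal list lengths, a q-value of at most 1e-5, cluster and promoter distances, joined summits and control-rich peaks. A further marker of retina is not reported here. No sequences or genes near peaks are given, since no genome of this build was used here.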

Additional observations from a re-analysis of the deposited data

How the results depend on the processing

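No paired analysis was possible because the lens Pax6 list holds 1 library and the forebrain replicates are joined in 1 list, so no replicate could be left out either. The depth of the libraries, which limits how many weak peaks can be called, is unknown. Among the alternative values, 61 stayed within counting error or within 1.5 times for counts of clusters, 30 moved further and 1 changed sign. The order of median widths turned round above the shortest listed width (75 bp in lens, 85 bp in forebrain, a difference of -10 bp against 33 bp). With summits at most 100 bp apart, the overlap was 30.8% of lens and 33.3% of forebrain peaks. With lists of equal length it was 33.5% of forebrain peaks. With equal lists the clustered share within 50 kb was 23.2% in lens, a difference of -4.41 points from forebrain against -2.60; leaving out control-rich peaks as well gave 23.3% and -4.41. At a q-value of at most 1e-5, median lens width was 290 bp and the clustered share of forebrain 25.8%, and with summits within 1 kb joined that share was 26.1%. At 10 kb, 9.04% of lens and 10.9% of forebrain peaks had a neighbour, with 16 lens and 19 forebrain clusters. At 100 kb these were 39.3% of lens and 40.7% of forebrain peaks (difference -1.46 points), with 180 lens and 170 forebrain clusters, so the order of the cluster counts turned round, as it did at a q-value of at most 1e-5 (75 lens and 74 forebrain clusters). Tissue-only peaks near the other list were 5.17% in lens and 5.76% in forebrain at 10 kb, and 30.1% in lens and 33.4% in forebrain at 100 kb. The share near H3K4me3 was 6.33% of lens peaks without control-rich ones, 6.003% of lens peaks with H3K4me3 lists of equal length, and 11.7% in lens and 12.2% in forebrain at 5 kb. For the 250 strongest peaks, the overlapped share differed by -29.2 points, against -46 points for the 100 strongest, the widest gap of the lengths tried. Larger distances include more peaks by construction; the cause of the other shifts was not tested. The alternatives on width above the shortest, on the strongest peaks, on equal lists without control-rich peaks, and on leaving control-rich peaks out of summit distances, widths, tissue-only distances and strengths were chosen after seeing the data.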
